A study of Homo sapiens with 6 samples.

Results

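The actin cytoskeleton and focal adhesion genes described here are 51 named genes that encode smooth muscle-type actins, non-muscle myosin II, proteins that coat, crosslink, assemble or sever actin filaments, proteins of focal adhesions, and the transcription factor SRF with its coactivators. They were chosen by name, and 47 of them had a probe set, out of 19775 genes tested. TPM3, FLNA, FLNC and FHL1 had no probe set named by the annotation used here and were not analysed here. The cells were MDA231-LM2, which descend from the breast cancer line MDA-MB-231 through selection for lung colonisation, and their RNA was read on 6 Affymetrix U133 Plus 2.0 arrays. Each array holds groups of short probes, called probe sets, whose intensity is a relative measure of RNA that cannot be compared between genes. The 3 monolayer arrays came from attached cells in DMEM with 10% fetal bovine serum, collected 48 h after the medium was renewed. The 3 oncosphere arrays came from cells kept for 4 days on ultra-low adhesive plates, where they grow as floating spheres, in serum-free HuMEC medium with insulin at 5 μg/ml, EGF at 20 ng/ml, bFGF at 10 ng/ml and 2% B27. Attachment, serum, growth factors and time therefore differed together and cannot be told apart. Each group was given by the labels as biological replicates of this 1 cell line, so the p-values measure the spread between its cultures. Fewer cells of a kind and less RNA per cell cannot be told apart in such bulk samples.

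The labelled cells were checked against markers. VIM, CD44, EGFR and AXL, which are high in MDA-MB-231 cells, were all above the array median, although AXL was 3.70-fold and EGFR 1.72-fold lower in oncospheres, both called. Of 6 markers of other breast cancer subtypes, CDH1 and PGR were below the array median and ESR1, KRT8, EPCAM and GATA3 were not. Array medians lay between 112.6 and 114.1 and the lowest value on any array was 48.0, so an intensity near 100 is close to the bottom of the scale. The second oncosphere array stood apart from the other oncosphere arrays on the second principal component, which carried 6.89% of the variance.

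Actin filaments are built from actin monomers and pulled by myosin II. Attached cells anchor bundles of them, the stress fibres, to the matrix through focal adhesions. SRF is switched on by the coactivators MRTFA and MRTFB, which unpolymerised actin holds in the cytoplasm, and many genes of the actin cytoskeleton are known targets of SRF through a sequence called the CArG box. Several members carry names from smooth muscle, in which their proteins are abundant, but epithelial and cancer cells make many of them too.

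The cytoskeletal genes moved in both directions. Of the 47, 11 were higher in oncospheres, 15 were lower and 21 were not called (limma, adjusted p below 0.05). Over all genes, 17.3% were called higher and 17.5% lower, 34.9% in either direction. The called share of the cytoskeletal genes was 55.3%. All but CNN1 were above the array median, and among the 12470 genes at or above the median probe set 25.4% were called higher and 26% lower, 51.4% in all, which is near the share of the cytoskeletal genes. At a change of at least 1.5-fold, 5 cytoskeletal genes were higher and 7 lower, against 7.23% and 5.6% of all genes. Of the 12470 genes at or above the median probe set, 1397 were higher and 1091 lower by that much. All oncosphere arrays lay above all monolayer arrays for 12 cytoskeletal genes and below them for 19, and the groups overlapped for 16. Over all genes the shares above and below were 22.3% and 24.6%. Among the 12470, the arrays lay above for 3847 and below for 4042, and overlapped for 4581. The median log2 change of the cytoskeletal genes was -0.08, against -0.02 over all genes, and their changes ran from -1.71 to 2.60.

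**Figure D1:**
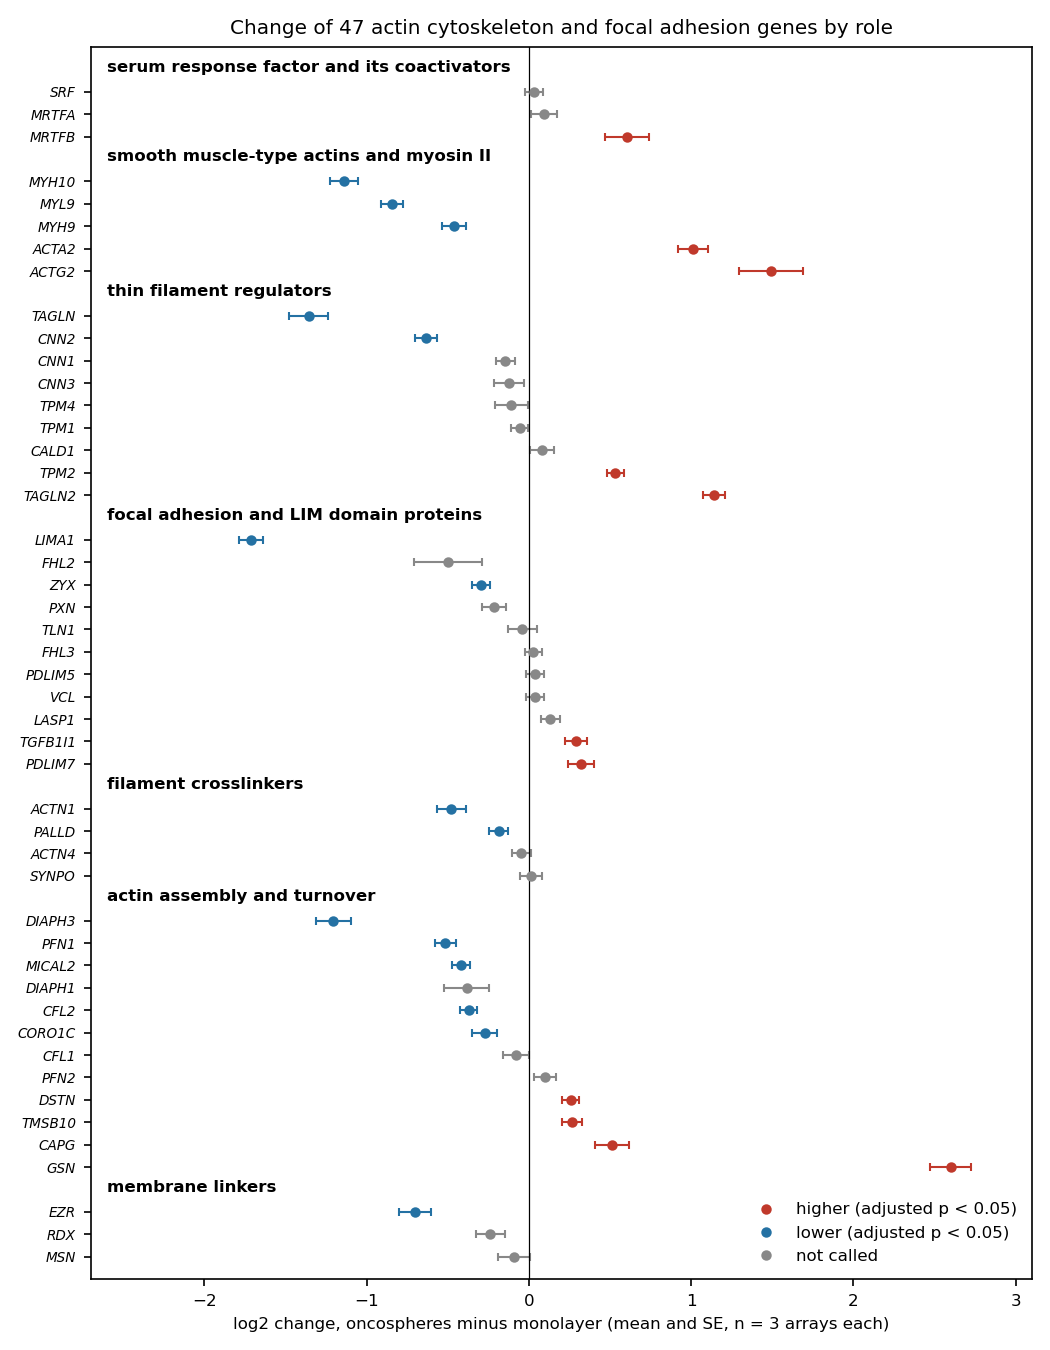
Log2 change of intensity (oncospheres minus monolayer) for each of the 47 measured cytoskeletal genes, grouped by role, with the standard error of the limma fit as bars and colours for called higher, called lower and not called. GSN at 2.60 and LIMA1 at -1.71 are the ends of the range, and genes of the same role lie on both sides of 0 in several roles.

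**Figure D2:**
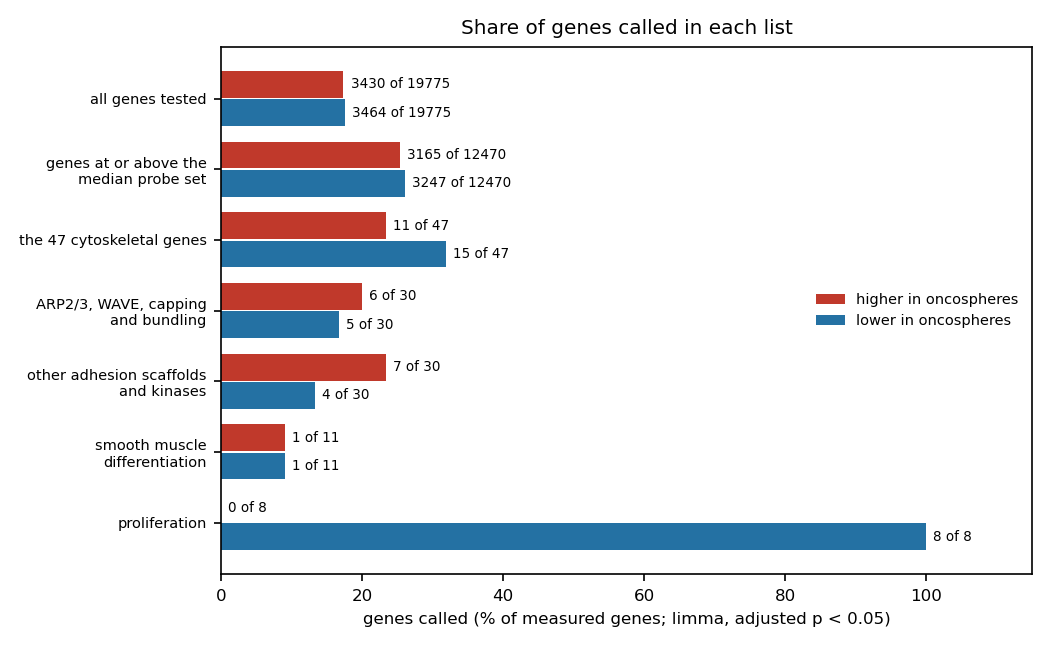
Percent of genes called higher and lower in oncospheres (limma, adjusted p below 0.05) among all genes tested, genes at or above the median probe set, the 47 cytoskeletal genes and 4 lists of other genes. The bar of the cytoskeletal genes, 23.4% higher and 31.9% lower, is close to that of the genes at or above the median probe set, 25.4% and 26%.

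Of the 3 regulators, only MRTFB was called. That is a called share of 33.3%, against 34.9% of all genes and 51.4% of genes at or above the median probe set. SRF, the transcription factor itself, read 405, 398 and 394 on the monolayer arrays and 390.1, 424 and 409.5 on the oncosphere arrays. MRTFA, a coactivator of SRF, read 154, 156 and 148 in monolayer and 168, 177 and 145 in oncospheres. Neither gene separated the groups, and the log2 changes were 0.03 ± 0.06 (SE) for SRF (limma, adjusted p = 0.752) and 0.09 ± 0.08 for MRTFA (adjusted p = 0.457). MRTFB, the second coactivator, read 455, 504 and 582 in monolayer and 851, 638 and 862 in oncospheres. The MRTFB groups did not overlap, and its level was 1.52-fold higher (log2 change 0.60 ± 0.13, adjusted p = 0.0101). The other 4 MRTFB probe sets lay near the bottom of the scale and none was called, and after subtraction of a background level the MRTFB change had an adjusted p of 0.0655.

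Promoter sequences from RefSeq (GRCh38.p14) were searched for the exact CArG box on both strands, from 250 bases before to 50 bases after each gene's start. The table held 44 of the 47 measured genes, and MYL9, TAGLN and PFN2 had no entry. A box was found in 7 of the 44, or 15.9%, against 1.60% of 27305 genes and 1.29% of 35116 windows. Known SRF targets are among the genes that were named, so this share describes the choice of genes. Of the 7, ACTG2 and TGFB1I1 were called higher, CNN2 and ACTN1 lower, and SRF, FHL2 and TPM4 were not called. The 200 bases before the start are shown for ACTG2, CNN2 and SRF, as genes with a box that were higher, lower and not called. They read 5′ to 3′ along the gene, with the box in capitals, at chr2:73892808-73893007, chr19:1026408-1026607 and chr6:43171069-43171268, all on the plus strand.
ACTG2: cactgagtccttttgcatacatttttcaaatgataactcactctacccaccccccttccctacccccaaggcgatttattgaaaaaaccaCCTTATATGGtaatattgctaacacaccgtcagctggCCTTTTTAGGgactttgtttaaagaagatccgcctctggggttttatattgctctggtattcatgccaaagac
CNN2: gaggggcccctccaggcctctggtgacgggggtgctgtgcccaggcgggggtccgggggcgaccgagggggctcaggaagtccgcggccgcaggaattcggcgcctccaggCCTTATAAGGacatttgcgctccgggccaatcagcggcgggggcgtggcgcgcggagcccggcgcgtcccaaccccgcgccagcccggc
SRF: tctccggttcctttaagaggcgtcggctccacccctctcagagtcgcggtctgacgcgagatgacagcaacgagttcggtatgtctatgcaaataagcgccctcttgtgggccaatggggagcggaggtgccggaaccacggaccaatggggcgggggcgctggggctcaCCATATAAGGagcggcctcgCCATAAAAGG
The boxes of ACTG2 begin 110 and 73 bases before its start, that of CNN2 89 bases, and those of SRF 30 and 10 bases. A match describes these letters and is not a measured site.

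The 2 smooth muscle-type actins and the 3 myosin II genes of this role changed in opposite directions. All 5 were called, against 51.4% of genes at or above the median probe set. The cytoplasmic actin ACTB, which is not among the 47, was not called (log2 change -0.15, limma adjusted p = 0.0964). ACTA2, smooth muscle alpha-actin, read 142, 131 and 148 in monolayer and 253, 321 and 278 in oncospheres. ACTG2, smooth muscle gamma-actin and the gene with the CArG boxes shown above, read 156, 154 and 144 in monolayer and 339, 612 and 370.0 in oncospheres. Every oncosphere array exceeded every monolayer array for both, with ACTG2 most spread and its highest value on the second oncosphere array. ACTA2 was 2.02-fold higher (log2 change 1.01 ± 0.09, limma adjusted p = 1.23e-04) and ACTG2 2.81-fold higher (1.49 ± 0.20, adjusted p = 7.16e-04). Both began close to the bottom of the scale, and subtraction of a background level raised the log2 changes to 1.53 for ACTA2 and 2.05 for ACTG2. Their other probe sets lay lower still and were not called. Actin genes share nearly identical coding sequences, and whether these probe sets also catch other actins was not tested.

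The 3 myosin II genes of this role were lower. MYH10, the heavy chain of non-muscle myosin IIB, read 533, 598 and 579.5 in monolayer and 242, 292 and 245 in oncospheres. MYL9, a regulatory light chain of myosin II, read 474, 452 and 451 in monolayer and 241, 276 and 250.2 in oncospheres. Both pairs of groups were fully separate, with MYH10 2.20-fold lower (log2 change -1.14 ± 0.09, adjusted p = 5.02e-05) and MYL9 1.80-fold lower (-0.84 ± 0.07, adjusted p = 6.02e-05). The second MYH10 probe set was lower as well, by a log2 change of -0.78, while the second, dimmer MYL9 probe set gave -0.20 and was not called. MYH9, the heavy chain of non-muscle myosin IIA, was 1.38-fold lower, 632 ± 47.5 (SD, n = 3) in monolayer and 458 ± 20.0 in oncospheres (adjusted p = 0.00183).

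**Figure D3:**
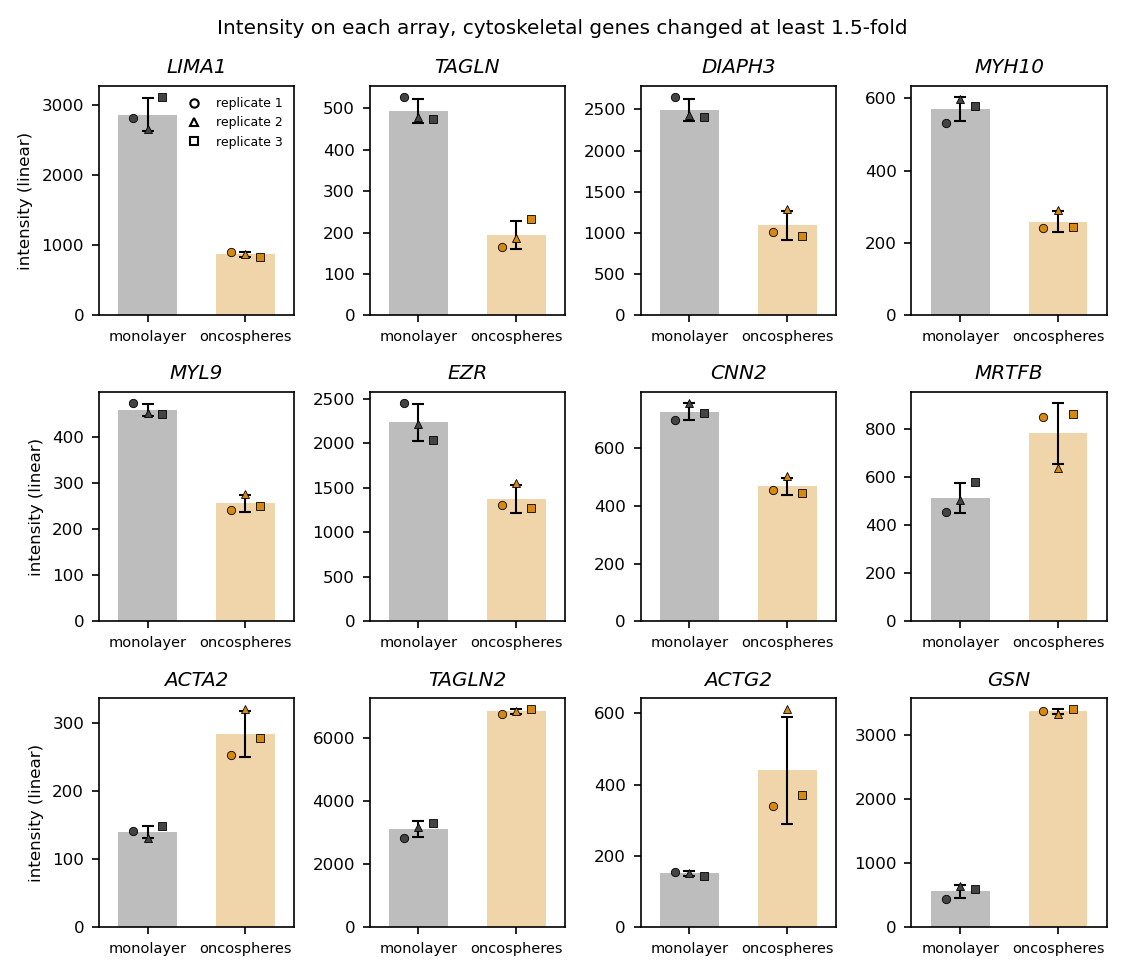
Linear intensity (no log) on each of the 3 monolayer and 3 oncosphere arrays, as points, with the mean as a bar and the SD as an error bar, for the 12 cytoskeletal genes called with a change of at least 1.5-fold. The groups are separate in every panel, but the genes were chosen by call and size of change, so this adds no evidence. Over all genes, the groups did not overlap for 46.9%. GSN shows the largest ratio between the groups, from at most 640.0 in monolayer to at least 3343 in oncospheres.

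Among the 9 measured thin filament regulators, 2 were higher, 2 were lower and 5 were not called. The called share was 44.4%, against 34.9% of all genes and 51.4% of genes at or above the median probe set. The transgelins, small actin-binding proteins of the calponin family, went opposite ways. TAGLN, known as a smooth muscle marker and SRF target, read 528, 480.2 and 475 in monolayer and 165, 187 and 232 in oncospheres. TAGLN2, its widely expressed relative, read 2846, 3202 and 3309 in monolayer and 6778, 6878 and 6921 in oncospheres. Neither gene's groups overlapped. TAGLN was 2.56-fold lower (log2 change -1.36 ± 0.12, limma adjusted p = 8.87e-05) and TAGLN2 2.20-fold higher (1.14 ± 0.07, adjusted p = 1.63e-05), a gap of 2.50 between their log2 changes that was picked after its values were seen and not tested. A second bright probe set gave -1.87 for TAGLN and 0.97 for TAGLN2. The dim TAGLN probe set that is the only one of its 3 not of the _s_at kind gave -0.21 and was not called.

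CNN2, a calponin of non-muscle cells, read 699, 757 and 721 in monolayer and 456, 502 and 444 in oncospheres. Its groups were separate, and CNN2 was 1.55-fold lower (log2 change -0.64 ± 0.07, adjusted p = 2.47e-04). CNN2 had only 1 probe set, of the _x_at kind, which may detect more than 1 gene. TPM2, beta-tropomyosin, which lies along the filament, was 1.45-fold higher on its brightest probe set (191 ± 3.88 in monolayer, 276 ± 4.37 in oncospheres, adjusted p = 1.75e-04), but its other 3 probe sets were not called. Tropomyosins TPM1 and TPM4, caldesmon CALD1 and calponins CNN1 and CNN3 were not called, with log2 changes between -0.15 and 0.08, though a second TPM4 probe set was called lower at -0.30 and 1 of the dimmer CALD1 probe sets higher at 0.31. CNN1, the calponin of smooth muscle, was below the array median, at 106 ± 4.54 in monolayer and 95.4 ± 3.27 in oncospheres. TPM1 had a probe set called in each direction, 0.42 and -0.25, both dim beside its brightest one.

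Of the 11 measured focal adhesion and LIM domain genes, 2 were higher, 2 were lower and 7 were not called. That is a called share of 36.4%, against 34.9% of all genes and 51.4% of genes at or above the median probe set. VCL and TLN1, which link integrins to actin, had log2 changes of 0.04 ± 0.06 and -0.04 ± 0.09, though a second TLN1 probe set was called lower at -0.32. LIMA1 (EPLIN), which stabilises and bundles filaments, read 2811, 2660.1 and 3119 in monolayer and 905, 871 and 838 in oncospheres. Its groups were far apart, and LIMA1 was 3.28-fold lower (log2 change -1.71 ± 0.07, adjusted p = 3.62e-06), with -1.83 on a second bright probe set. ZYX (zyxin), a protein of adhesions and stress fibres, was 1.23-fold lower (262 ± 6.22 in monolayer, 214 ± 9.06 in oncospheres, adjusted p = 0.00574). TGFB1I1 (Hic-5), a relative of paxillin whose CArG box lies 51 bases before an alternative start inside the gene, was 1.22-fold higher (1391 ± 79.0 and 1701 ± 90.9, adjusted p = 0.0133). The TGFB1I1 call was lost without the monolayer array of replicate 3 (adjusted p = 0.0511).

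PDLIM7, a LIM protein that binds filaments, was called higher on its brightest probe set (log2 change 0.32 ± 0.08, adjusted p = 0.0173) while 3 of its other 6 probe sets were called lower, and the call was lost without monolayer replicate 3 (0.0574) or oncosphere replicate 1 (0.0643). The remaining genes of this role, PXN, FHL2, FHL3, PDLIM5 and LASP1, were not called, with log2 changes between -0.50 and 0.13. FHL2, a LIM-only cofactor, had the widest spread among them, from 1148 to 2111 in oncospheres, and was called, among the alternatives run, only without oncosphere replicate 1 (log2 change -0.69, adjusted p = 0.0436). PXN (paxillin), an adhesion scaffold, was -0.21 on its brightest probe set (adjusted p = 0.0646), -0.32 on the other, which was called, and was called without monolayer replicate 2 (-0.28, adjusted p = 0.0217). PDLIM5 gave 0.04 on its brightest probe set, but 5 of its 10 probe sets were called lower.

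**Figure D4:**
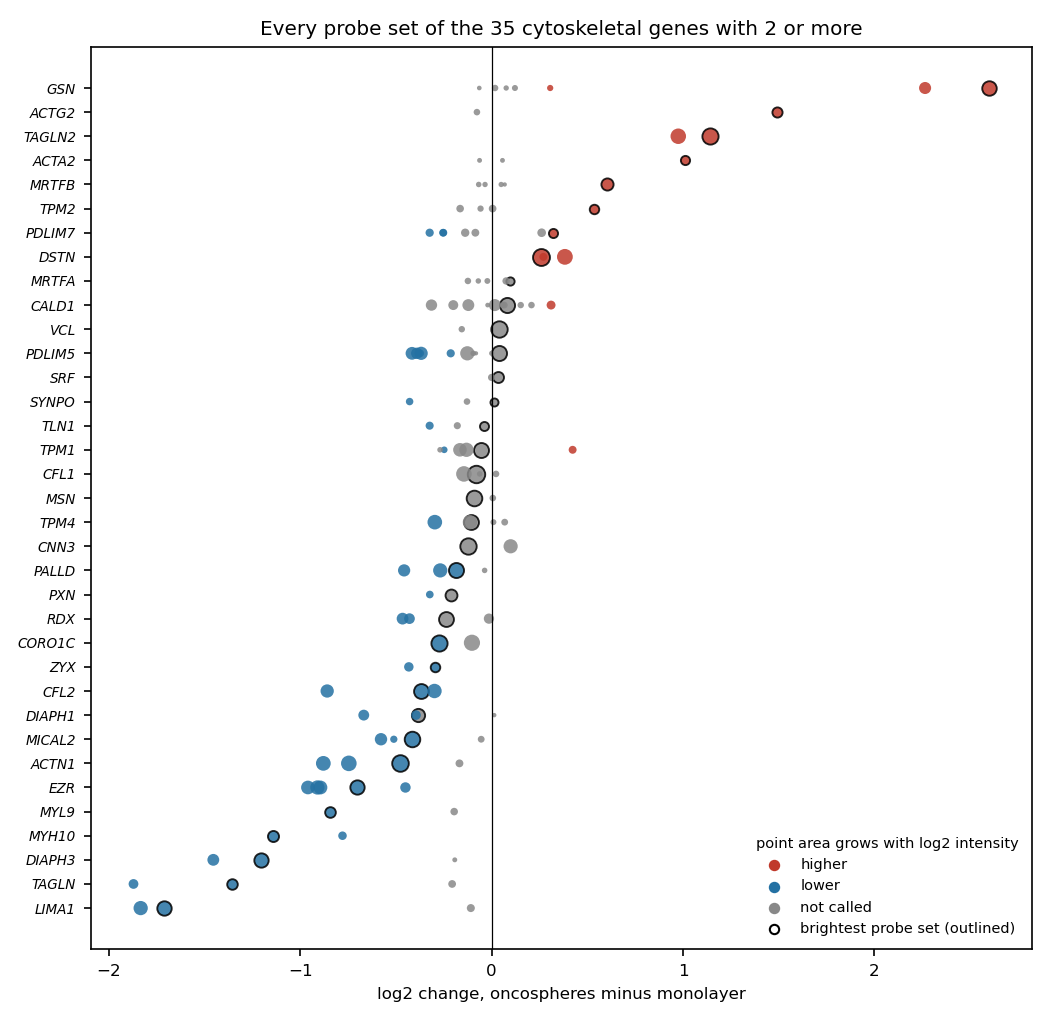
Log2 change (oncospheres minus monolayer) of every probe set of the 35 cytoskeletal genes that had 2 or more, with the brightest probe set of each gene outlined, point area growing with log2 intensity and colours for the call. The bright probe sets of GSN (2.60 and 2.26), TAGLN2 and LIMA1 lie close to each other. The probe sets of PDLIM7, all dimmer than these, lie on both sides of 0.

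None of the 4 measured crosslinkers was higher, and 2 were lower. Their called share was 50%, against 34.9% of all genes and 51.4% of genes at or above the median probe set. ACTN1, an alpha-actinin of stress fibres, was 1.39-fold lower (7373 ± 365 in monolayer, 5311 ± 617 in oncospheres, limma adjusted p = 0.0045). Further bright ACTN1 probe sets were called lower at -0.75 and -0.88, and a dim one at -0.17 was not called. A CArG box lies 171 bases before an alternative start within the ACTN1 gene. ACTN4, the other non-muscle alpha-actinin, had a log2 change of -0.05 ± 0.06 and was not called. PALLD (palladin), which binds alpha-actinin, was 1.14-fold lower on its brightest probe set, with an adjusted p of 0.0481. This call was lost without any 1 array other than oncosphere replicate 2, with adjusted p up to 0.153. Further PALLD probe sets were called lower at -0.27 and -0.46, and a dim one at -0.04 was not called. SYNPO (synaptopodin) was not called at 0.01 ± 0.07, and its second probe set was lower at -0.43.

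Of the 12 genes of filament assembly and turnover, 4 were higher and 5 lower, with a median log2 change of -0.18. This called share was 75%, against 34.9% of all genes and 51.4% of genes at or above the median probe set. The role held GSN, the gene with the largest increase of the 47. GSN (gelsolin), which severs filaments and caps their ends when calcium rises, read 445, 640.0 and 607 in monolayer and 3376, 3343 and 3414 in oncospheres. All oncosphere values lay several-fold above all monolayer values and close to each other. GSN was 6.06-fold higher (log2 change 2.60 ± 0.13, adjusted p = 6.22e-06), and a second probe set gave 2.26 (adjusted p = 4.18e-07). Of its other 5 probe sets, all dim, 1 was higher at 0.31 and 4 were not called. CAPG, a relative of gelsolin that caps filaments without severing them, was 1.43-fold higher (1901 ± 119 in monolayer, 2727 ± 385 in oncospheres, adjusted p = 0.00647).

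DIAPH3, a formin that elongates unbranched filaments, read 2652, 2438 and 2404 in monolayer and 1015, 1292 and 970.1 in oncospheres. Its groups were separate, and DIAPH3 was 2.30-fold lower (log2 change -1.20 ± 0.11, adjusted p = 1.06e-04), with -1.45 on a second probe set. DIAPH1, a formin of the same family, had a log2 change of -0.38 ± 0.14 (adjusted p = 0.0753), with the second oncosphere array, at 1127, just under the lowest monolayer value. Without that array DIAPH1 was lower by -0.54 (adjusted p = 0.00628), and 2 of its other 3 probe sets were called lower.

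Profilins hand actin monomers to growing filaments. PFN1 was 1.43-fold lower (8614 ± 187 in monolayer, 6029.6 ± 393 in oncospheres, adjusted p = 5.57e-04), whereas PFN2 was not called at 0.10 ± 0.07. In the cofilin family, which disassembles filaments, CFL2 was lower and DSTN (destrin) higher, and each direction was called on all 3 probe sets of the gene. CFL2 was 1.29-fold lower (2699 ± 61.0 and 2087 ± 15.1, adjusted p = 0.00108), DSTN 1.20-fold higher (6946 ± 179 and 8302 ± 117, adjusted p = 0.00756), and CFL1, the non-muscle cofilin, was not called at -0.08 ± 0.08. MICAL2, an enzyme that oxidises actin, was 1.34-fold lower (adjusted p = 6.07e-04). TMSB10 (thymosin beta-10), which holds monomers, was 1.20-fold higher (adjusted p = 0.0134), but not called without monolayer replicate 1 (0.0512). CORO1C, a coronin, was 1.21-fold lower (adjusted p = 0.0299), a call that was lost without any 1 array other than monolayer replicate 3, with adjusted p up to 0.0849. Its second probe set, about as bright, gave -0.10 with overlapping groups and was not called.

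The ezrin, radixin and moesin proteins tie filaments to the plasma membrane. EZR read 2451, 2216 and 2029.7 in monolayer and 1304, 1550.3 and 1269 in oncospheres. Its groups were separate, EZR was 1.63-fold lower (log2 change -0.70 ± 0.10, adjusted p = 0.00102), and all 5 of its probe sets were called lower. RDX had a log2 change of -0.24 ± 0.09 and was not called (adjusted p = 0.0816), although 2 of its other 3 probe sets were called lower and the brightest was called without monolayer replicate 1 (-0.31, adjusted p = 0.0394). MSN was not called at -0.09 ± 0.10.

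Other genes of the pathway were counted from lists of the regulators and partners of these proteins. Of 30 genes for ARP2/3, WAVE, capping and bundling proteins, 6 were higher and 5 lower, led by fascin FSCN1 (0.64), ARPC1B (0.53) and ABLIM3 (0.39) and by VASP (-0.50), LCP1 (-0.50) and ENAH (-0.45). Of 30 other adhesion scaffolds and kinases, 7 were higher and 4 lower, led by PEAK1 (0.98), TNS3 (0.91) and PDLIM4 (0.77) and by PDLIM2 (-1.21), CSRP1 (-0.35) and PARVA (-0.24). The share called in each of these lists was 36.7%, against 34.9% of all genes and 51.4% of genes at or above the median probe set, and all but 1 of these genes were above the array median. ACTB and TMSB4X, abundant in every cell, were not called.

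Genes of 2 other kinds were counted as well. Of 11 smooth muscle differentiation genes, SYNM (1.02) was higher, SMTN (-0.41) lower and 9 not called, and 5 of the 11 lay below the array median. Their called share was 18.2%, against 34.9% of all genes, and their median log2 change was -0.03. Their summed intensity was 3064 to 3441 in monolayer and 3766 to 4276 in oncospheres, with SYNM at 618 ± 69.1 and 1251 ± 50.7. All 8 proliferation genes were called lower, against 17.5% of all genes and 26% of genes at or above the median probe set. Their log2 changes ran from -1.63 for CDC20 to -0.40 for TOP2A. The summed intensity of these genes fell from between 31108 and 32628 to between 15836 and 20643. The part of these genes in the changes of the cytoskeletal genes was not tested.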

How the data were processed

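The authors deposited linear intensities per probe set, normalized by robust multi-array averaging (RMA). Of tools, affy is named by the submitters' processing notes, and its version was not given in the sources used here. From the 54675 deposited intensities per array, 62 control probe sets were left out and log2 was taken. Of the 54613 tested probe sets, 41091 had 1 gene symbol, 1801 several and 11721 none. Each gene was represented by its single-symbol probe set with the highest mean over the 6 arrays. MRTFA and MRTFB were matched to older symbols through gene identifiers in the RefSeq table.

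Oncospheres and monolayer were compared with limma 3.58.1 in R 4.3.3 (lmFit and eBayes, two-sided, Benjamini-Hochberg over all tested probe sets, called at an adjusted p below 0.05). The procedure was tested on simulated data. The number of arrays limits the precision. Names ending in _x_at or _s_at mark probe sets that may detect more than 1 transcript or gene. The genes and lists were chosen with earlier results of these data known. Values on every array were given for SRF, MRTFA, MRTFB and each gene called at 1.5-fold or more, and from each list of other genes up to 3 with the largest change each way. Alternatives were other scalings, a background subtraction (the 5th percentile, floor 16), probe set choices, array weights, a replicate block and leaving out each array. Results of 1 list of other genes are not reported here.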

Additional observations from a re-analysis of the deposited data

How the results depend on the processing

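The counts of 11 higher and 15 lower cytoskeletal genes were 9 to 11 and 13 to 15 when each array was left out in turn. With the probe set of second-highest mean, 3 of 35 were higher and 16 lower. Without _x_at and _s_at probe sets, 8 of 37 were higher and 7 lower. At an adjusted p below 0.01, 7 were higher and 13 lower, and with at least 1.5-fold 5 and 7. Averaging a gene's probe sets gave 8 and 20. Quantile, cyclic loess and median scaling gave 11, 12 and 11 higher and 15, 13 and 15 lower. The background subtraction gave 9 and 14, array weights 11 and 16, an intensity trend in the prior 11 and 15, and leaving out dim probe sets 11 and 16 of 46.

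The sign of the log2 change turned for 26 values of 17 genes over all alternatives run, and in 18 of these neither fit made a call. In the other 8 at least 1 of the fits did. On the second probe set the log2 changes were -0.0632 for ACTA2, -0.0770 for ACTG2, -0.0677 for MRTFB and -0.43 for SYNPO. Averaged probe sets gave -0.20 for PDLIM5, -0.0675 for PDLIM7 and -0.18 for SYNPO. Without _x_at and _s_at probe sets TPM1 was 0.42, GSN 0.02 and not called, and TAGLN -0.21 and not called. The probe set choices read another, mostly dimmer probe set or averaged several, and why the values differed was not tested.

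The groups share replicate numbers, but nothing says that a number marks a shared day. Deviations from the group means of same-numbered arrays correlated at 0.07, 0.08 and 0.09 over all tested probe sets and at 0.10, 0.14 and 0.13 over those at or above the median mean, and every array correlated best with its own number. This is a hint from the data, not from the design. With a replicate block, 11 were higher and 16 lower. PALLD lost its call (adjusted p = 0.0713), and PXN (0.0434) and RDX (0.0328) gained one. No other call of a cytoskeletal gene changed under the block.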

Other observations

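The second oncosphere array, which stood apart on the second principal component, was the oncosphere array nearest to monolayer for 15 of the 26 called cytoskeletal genes and the farthest for 6. Over all tested probe sets this array was also nearest to monolayer on the first principal component, at 37.1 against 47.85 and 45.74. That component carried 79.1% of the variance. The same count was not made over all genes, so it is not a trait of the cytoskeletal genes. Leaving this array out gave 11 cytoskeletal genes called higher and 15 lower.

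Some close relatives read differently, while others, such as MYH9 and MYH10, were both lower. The pairs below were chosen after their values were seen and not tested, so they do not tell how often relatives differ. The log2 change of PFN2 exceeded that of PFN1 by 0.62, DSTN that of CFL2 by 0.63, MSN that of EZR by 0.61, CNN3 that of CNN2 by 0.51 and ACTN4 that of ACTN1 by 0.43, with no overlap between the groups' within-array ratios. For MRTFB over MRTFA the difference was 0.51, and the ratios overlapped.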
